A study of Rattus norvegicus with 12 samples.

Results

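Kidney RNA of the congenic rat strain FHH.Pkhd1 was set against that of its FHH background strain, using the 6 arrays whose strain label names either, out of 12 in the series. FHH, the Fawn Hooded Hypertensive rat, is an inbred strain with hypertension and progressive kidney damage. FHH.Pkhd1, labelled FHH.PCK-(D9Rat35-D9Rat70)/Mcwi, carries a stretch of chromosome 9 from the PCK rat between the markers D9Rat35 and D9Rat70 and is otherwise FHH. PCK is a rat with a spontaneous mutation of Pkhd1 that arose in the Sprague Dawley (SD) stock, and SD and PCK kidneys fill the other 6 arrays. All rats were 30 days old and were fed 5LOD diet. Each strain is represented by 1 RNA pool from both kidneys of 6 animals, hybridized to 3 arrays. The 3 arrays are thus technical replicates, so that every standard error (SE) and p-value describes the spread between arrays of a pool and not that between animals. With 1 pool per strain, an effect of the segment, of other loci that still differ between the strains and of the particular animals pooled cannot be told apart.

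Pkhd1 encodes fibrocystin, a large membrane protein of the primary cilium and the apical surface of collecting duct and bile duct cells. Its loss causes autosomal recessive polycystic kidney disease, in which collecting ducts widen into cysts. The comparison asks which transcripts differ once the PCK form of the locus is placed on a background that the series title counts among strains either susceptible or resistant to the disease. No probe set carried the symbol Pkhd1, so its own transcript is not described here.

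The tissue label fitted the markers of kidney. In FHH and FHH.Pkhd1 the phosphate transporter Slc34a1 of the proximal tubule was at 13.53 and 13.63 (log2 signal), uromodulin (Umod) of the loop of Henle at 13.68 and 13.69, and the water channel Aqp2 of principal cells at 12.45 and 12.74. The Y-linked Eif2s3y was at 9.57 and 9.51, and Xist, the transcript of the inactive X chromosome, at 3.60 and 3.62, under the detection level of 5.74 used throughout. No blank was measured, and the level was set at the 40th percentile of the values of all probe sets. Array medians lay between 6.44 and 6.46, arrays of a pool correlated at 0.9973 to 0.9984, and FHH arrays with FHH.Pkhd1 arrays at 0.9947 to 0.996. The poly-A spike-ins, bacterial RNAs added before labelling, were at 11.08, 11.12 and 11.12 in FHH and at 9.89, 10.09 and 10.04 in FHH.Pkhd1, lower by -1.10 (two-sided exact permutation test, p = 0.1; 3 arrays in each pool cannot give less). The hybridization controls differed by -0.41, and the signal gap between the ends of the beta-actin transcript by -0.19, with the same exact permutation p = 0.1. The part of these technical shifts in the gene differences was not tested. The number of arrays bounds only how precisely these pools were measured, and 1 pool per strain gives no spread between animals.

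The 5 largest differences between the pools were losses of signal in FHH.Pkhd1, in Slco1a1, Dhrs7l1, Ugt2b35, Cyp4a8 and Akr1c13, which handle steroids, fatty acids or organic anions. Of 10894 genes tested, 138 were called, that is, had a limma adjusted p under 0.05 and a difference of at least 1.5-fold (1.27%). Of these, 95 were lower (0.872%) and 43 higher (0.395%) in FHH.Pkhd1. None of the 43 reached 4-fold, while 7 of the 95 did, and 2-fold was reached by 7 higher and 24 lower genes. The median size was 0.77 among lower and 0.70 among higher genes, against a median difference of 0.01 over all genes tested. In all 138 the arrays of the pools did not overlap. The median standard deviation between arrays was 0.06 in FHH and 0.05 in FHH.Pkhd1, so the fold limit nearly fixes this and it adds no support. Uncalled genes such as Rpl24 (0.17) and Insig1 (0.16) did not overlap either, and the share over all tested genes is not given here. In 18 of the lower and 6 of the higher genes, a pool lay under the detection level, and no fold is given where that was so. With the adjusted p alone and no limit on size, 1366 genes were higher (12.5%) and 1057 lower (9.7%). The fold limit therefore set the number of calls more than the test did. The called genes nearest to the limit were Ucp1 (-0.585) and Resp18 (-0.587), and the nearest genes outside it were LOC100911506 (-0.584), Clec3b (-0.579) and Mcm6 (0.579).

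**Figure D1:**
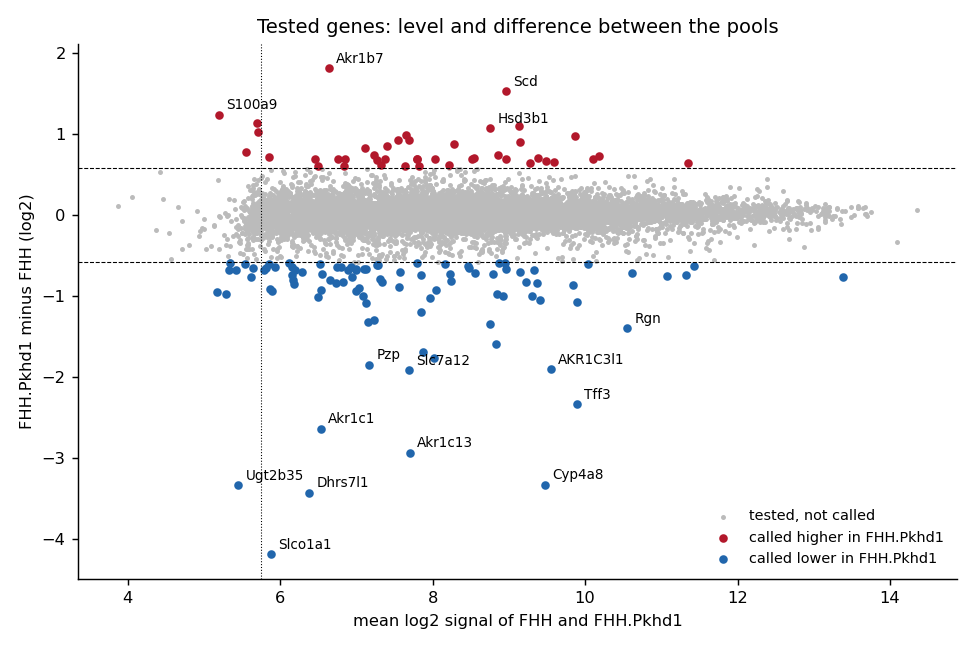
Each point is a gene, with the mean log2 signal of the FHH and FHH.Pkhd1 pools on the horizontal axis and the log2 difference FHH.Pkhd1 minus FHH on the vertical axis. Dashed lines mark 1.5-fold and the dotted line the detection level of 5.74. The 95 called lower genes (blue) reach -4.19, whereas the 43 called higher genes (red) end at 1.81.

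The start regions of the 5 genes with the largest losses, and of Akr1b7, the gene with the largest gain, are shown so that a reader can place the transcripts behind these values. Each line gives the 250 bases before the annotated start, from RefSeq on the GRCr8 assembly, on the strand of the gene. They lie at chr4:176681993-176682242 for Slco1a1 (minus strand), chr6:97047900-97048149 for Dhrs7l1 (minus strand), chr14:21208191-21208440 for Ugt2b35 (plus strand), chr5:133970227-133970476 for Cyp4a8 (minus strand), chr17:70894386-70894635 for Akr1c13 (plus strand) and chr4:64043720-64043969 for Akr1b7 (plus strand). Capitals mark AGAACA or its reverse complement TGTTCT, the hexamer bound by androgen, glucocorticoid and progesterone receptors as part of a longer element.
Slco1a1: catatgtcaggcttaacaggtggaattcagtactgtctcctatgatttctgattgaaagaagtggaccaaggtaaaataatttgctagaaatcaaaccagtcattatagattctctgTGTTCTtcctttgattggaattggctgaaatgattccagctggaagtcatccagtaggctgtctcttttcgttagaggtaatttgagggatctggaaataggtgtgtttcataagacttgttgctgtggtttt
Dhrs7l1: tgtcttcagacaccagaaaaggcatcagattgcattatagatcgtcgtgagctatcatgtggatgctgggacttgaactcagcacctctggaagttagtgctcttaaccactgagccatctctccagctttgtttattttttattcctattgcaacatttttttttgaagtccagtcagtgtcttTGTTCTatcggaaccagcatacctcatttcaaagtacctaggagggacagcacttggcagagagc
Ugt2b35: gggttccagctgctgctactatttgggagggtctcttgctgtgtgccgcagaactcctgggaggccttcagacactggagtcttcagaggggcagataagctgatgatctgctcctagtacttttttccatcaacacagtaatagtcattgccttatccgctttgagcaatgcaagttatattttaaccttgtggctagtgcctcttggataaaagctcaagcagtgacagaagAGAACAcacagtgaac
Cyp4a8: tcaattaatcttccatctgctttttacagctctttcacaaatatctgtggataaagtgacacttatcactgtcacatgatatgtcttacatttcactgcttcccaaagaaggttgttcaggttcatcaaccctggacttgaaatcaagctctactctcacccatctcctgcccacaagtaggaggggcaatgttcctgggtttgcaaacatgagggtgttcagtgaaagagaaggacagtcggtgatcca
Akr1c13: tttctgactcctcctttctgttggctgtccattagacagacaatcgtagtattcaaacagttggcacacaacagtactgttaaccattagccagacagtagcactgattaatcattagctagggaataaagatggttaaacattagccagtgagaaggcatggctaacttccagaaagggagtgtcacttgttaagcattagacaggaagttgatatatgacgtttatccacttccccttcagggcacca
Akr1b7: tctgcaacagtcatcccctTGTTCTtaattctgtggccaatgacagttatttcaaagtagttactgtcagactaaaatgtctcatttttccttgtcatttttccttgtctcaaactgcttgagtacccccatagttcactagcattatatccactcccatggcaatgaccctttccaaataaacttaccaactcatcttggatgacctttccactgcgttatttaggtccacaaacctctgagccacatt

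The hexamer was found in the windows of Slco1a1, Dhrs7l1 and Ugt2b35, at 133, 65 and 16 bases before the start, and in that of Akr1b7 at 231 bases. The windows of Cyp4a8 and Akr1c13 did not hold it. On either strand it occurred in 17.5% of 33469 such windows, in 12 of the 77 lower genes matched to a window and in 1 of 34 higher genes. GTTAAT, the core of the element bound by the tubule factor HNF1, or its reverse complement ATTAAC, occurred in 6.45% of all windows, in 8 of 77 and in 2 of 34. TATAAA or TTTATA occurred in 12.9% of all windows, in 9 of 77 and in 4 of 34. None of these counts was tested, the motifs were searched without regard to overlap, and a match of 6 letters is no evidence of binding.

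The gene with the largest difference was Slco1a1 on chromosome 4, an organic anion transporter of the proximal tubule brush border that carries steroid conjugates and bile acids. Its signal was 7.97, 7.98 and 7.96 on the FHH arrays and 3.92, 3.63 and 3.78 on those of FHH.Pkhd1. The congenic pool was thus under the detection level on every array, with a difference of -4.19 ± 0.06 (SE, limma adjusted p = 4.56e-13). In SD and PCK the mean was higher still, at 10.23 and 8.57. Slco1a1 belongs to a list of 36 tested organic anion and cation transporters, of which 4 were called, all lower, against 0.872% of all tested genes, with a list median of -0.02. Counts over the lists that follow can be read against the same shares, 1.27% called in either direction, 0.872% lower and 0.395% higher. The others called were Slc22a2, the organic cation transporter of the basolateral membrane (9.79 to 8.95, 1.79-fold), Abcc2, an apical export pump (7.06 to 6.25, a difference of -0.80), and Slc22a7, an organic anion transporter that lies on chromosome 9 (8.6 to 7.87, 1.65-fold).

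Large differences were also found among steroid- and carbonyl-reducing enzymes. Dhrs7l1, a short-chain dehydrogenase on chromosome 6, was at 8.08, 8.13 and 8.07 in FHH and at 4.80, 4.74 and 4.46 in FHH.Pkhd1 (-3.43 ± 0.07, SE, limma adjusted p = 1.09e-11). It was the only called gene among 24 tested short-chain and hydroxysteroid dehydrogenases. Of 14 aldo-keto reductases tested, enzymes that reduce steroids, prostaglandins and aldehydes, 3 were lower and 1 higher, with a list median of -0.11. The higher one, Akr1b7, reached the detection level only in FHH.Pkhd1, so its count is no support. Akr1c13 fell from 9.21, 9.17 and 9.12 to 6.16, 6.16 and 6.37, a 7.64-fold difference (-2.93 ± 0.06, SE, limma adjusted p = 3.3e-12). Akr1c1 was at 7.91, 7.80 and 7.86 in FHH and at 5.16, 5.30 and 5.20 in FHH.Pkhd1 (-2.64 ± 0.04, SE). AKR1C3l1 was 3.73-fold lower, at 10.5 in FHH and 8.6 in FHH.Pkhd1. These 3 genes are neighbours among the tested genes of chromosome 17. Members of the subfamily are alike in sequence, so cross-hybridization between their probe sets is possible and was not tested. By the adjusted p alone 6 of the 14 were lower and 1 higher. Akr1c19 of the same subfamily differed by -0.33, Akr7a3 by -0.22 and Akr1e2 by -0.17, each short of the fold limit, and Akr1c15 by -0.05 and Akr1a1 by 0.01.

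Ugt2b35 adds glucuronic acid to steroids and other lipophilic compounds before export. Its signal was 7.37, 7.04 and 6.96 in FHH and 3.96, 3.61 and 3.78 in FHH.Pkhd1, again under the detection level in the congenic pool (-3.34 ± 0.10, SE, limma adjusted p = 2.62e-10). Its chromosome 14 neighbour Ugt2b7 was called as well (-0.95 ± 0.12, SE), at a mean of 5.64 in FHH and 4.70 in FHH.Pkhd1, both under that level. They were 2 of the 5 tested genes of glucuronidation, whose median was -0.08.

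Among enzymes that oxidize fatty acids and arachidonate, 4 of 25 tested were called, all lower, with a list median of -0.02. Cyp4a8, a fatty acid omega-hydroxylase on chromosome 5, was at 11.19, 11.14 and 11.09 in FHH and at 7.78, 7.73 and 7.92 in FHH.Pkhd1, a 10.1-fold difference (-3.33 ± 0.05, SE, limma adjusted p = 1.22e-12). Its other detected probe set gave -3.22, and SD and PCK were level at 12.27 and 12.27. The related Cyp4a3 differed by -0.17 and was not called. Ptgds, the prostaglandin D synthase, was 2.51-fold lower (7.81 to 6.49), and Cyp2j4, an epoxygenase, 1.69-fold lower (7.32 to 6.56). Cyp4f17 was at -0.60, a call lost with quantile normalization (-0.57) and without any of 3 arrays (-0.53 to -0.58). Cyp4f17 reached the detection level only in FHH (5.84), so it was tested only through the pool where it is high.

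**Figure D2:**
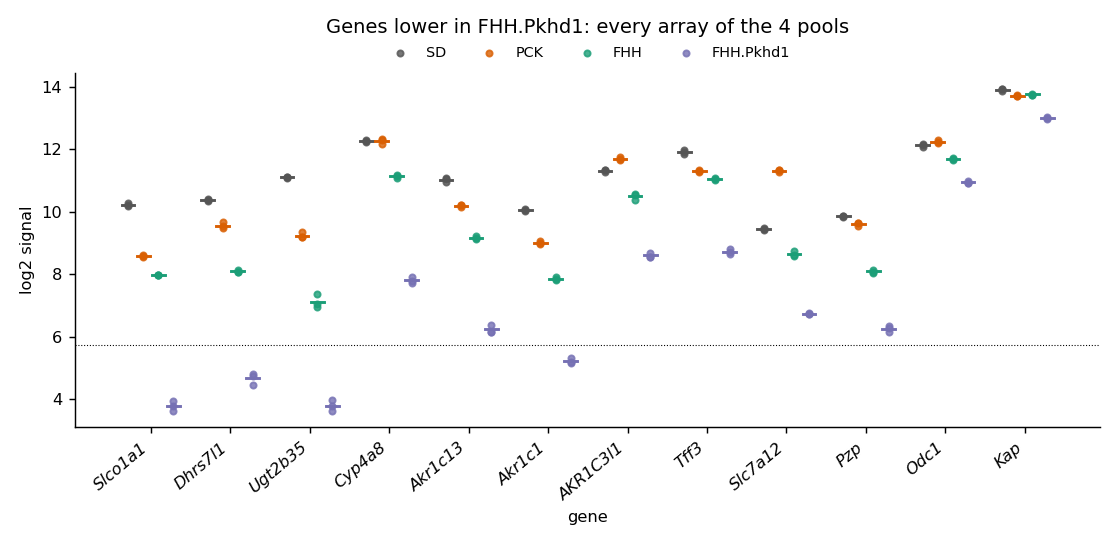
Points are the log2 signals of every array and short bars the means of 3 arrays, for 12 genes called lower in FHH.Pkhd1, in the pools SD, PCK, FHH and FHH.Pkhd1. The dotted line is the detection level of 5.74. FHH.Pkhd1 is the lowest pool for each gene shown, and for Slco1a1, Dhrs7l1, Ugt2b35 and Akr1c1 it lies under the detection level.

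The remaining large losses fell on genes of varied roles. Tff3, a trefoil peptide that protects mucous surfaces, was at 11.10, 11.03 and 11.05 in FHH and at 8.80, 8.71 and 8.65 in FHH.Pkhd1 (5.05-fold, limma adjusted p = 3.56e-12). Pzp, a protease inhibitor related to alpha-2-macroglobulin, was 3.60-fold lower (8.09 to 6.25), and Apcs, serum amyloid P component, 3.01-fold lower (9.62 to 8.03). Rgn, regucalcin, which binds calcium and makes a precursor of vitamin C, was 2.63-fold lower on arrays of 11.24 to 11.27 against 9.78 to 9.92. Pcdh9, a protocadherin, and Trpv1, the capsaicin-gated channel, were 3.39-fold and 3.22-fold lower, and other probe sets of the genes gave -1.21 and -1.40. Etfrf1, a regulator of the electron transfer flavoprotein, was 2.55-fold lower, Commd6 2.45-fold, Pts, an enzyme of tetrahydrobiopterin synthesis, 2.28-fold, and the glucose transporter Naglt1 2.10-fold. In none of these genes did an array of one pool reach into the range of the other, as held for every called gene. Uncalled genes such as Gsta3 (-0.15) did not overlap either, so the lack of overlap adds no support.

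Several of the genes with large losses are known to depend on sex or androgens in rodent kidney. Of 22 tested genes on a list of such transcripts, 8 were called, all lower, against 0.872% of all tested genes called lower. The list does not record which sex is higher for a gene, so a shared direction gives no direction of androgen action. It was chosen, like the other lists, with earlier results of these data known. The list median was -0.27, against 0.01 for all tested genes. By the adjusted p alone, 13 of the 22 were lower and 2 higher, against 9.7% and 12.5% of all tested genes. Besides Slco1a1, Cyp4a8, Ugt2b35, Slc22a2 and Slc22a7 they were Slc7a12, Odc1 and Kap. The amino acid transporter Slc7a12 was at 8.63, 8.57 and 8.74 in FHH and at 6.75, 6.73 and 6.72 in FHH.Pkhd1 (3.77-fold, limma adjusted p = 1.09e-11). Odc1, ornithine decarboxylase of polyamine synthesis, was at 11.72, 11.66 and 11.69 against 10.99, 10.93 and 10.93 (1.67-fold). Kap, kidney androgen-regulated protein, was at 13.76, 13.76 and 13.78 against 12.97, 13 and 13.04 (1.69-fold). The summed signal of the 25 measured genes of the list was 16.03 to 16.05 on the FHH arrays, 15.73 to 15.78 on those of FHH.Pkhd1, 16.31 to 16.32 in SD and 16.27 to 16.28 in PCK (log2 of the sum). Members such as Cyp2e1 (0.08), Cyp4b1 (0.00) and Slc22a6 (0.05) did not pass the test. The labels give no sex, and Eif2s3y and Xist, given above, did not set the pools apart. The part of the animals' sex or hormone state was not tested.

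For most called genes FHH.Pkhd1 was the extreme pool of the 4. All 3 of its arrays lay under all 6 SD and PCK arrays for 84 of the 95 lower genes (88.4%, against 12.6% of all tested genes, whose FHH.Pkhd1 arrays lay under them). They lay above all 6 for 35 of the 43 higher genes (81.4%, against 26.9%). FHH.Pkhd1 had the lowest mean of the 4 pools in 87 of the 95 lower genes and the highest in 37 of the 43 higher genes. The median FHH minus SD was -0.06 for the lower and 0.00 for the higher set, over members that went both ways. FHH lay well under SD for Slco1a1 (7.97 against 10.23) and Dhrs7l1 (8.09 against 10.37), and above it for Hsd3b1 (8.22 against 5.80) and Scd (8.20 against 6.66). The rule that picked these genes used the FHH and FHH.Pkhd1 arrays, so that these counts describe the called sets and are no separate test.

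For many genes the difference between FHH.Pkhd1 and FHH was also unlike that between PCK and SD. PCK and SD are the pair that contrasts the same mutant locus on the stock it came from. A limma contrast of the 2 differences, which share no array, passed at adjusted p under 0.05 for 3345 of 10894 genes (30.7%). It passed for 86 of the 95 lower genes, 84 of them further down in FHH.Pkhd1 minus FHH, and for 42 of the 43 higher genes, 41 of them further up. The rule chose these genes for a large difference in this pair, so the direction is fixed in part by the choice. Several of the largest losses shared their direction with PCK minus SD at a smaller size, as in Slco1a1 (-1.65), Ugt2b35 (-1.86), Dhrs7l1 (-0.82) and Akr1c13 (-0.83). Pcdh9 fell further in PCK minus SD (-2.57), and Cyp4a8 was level in that pair. Havcr1, kidney injury molecule 1, was lower in FHH.Pkhd1 (6.87, 6.96 and 7.17 against 6.2, 6.11 and 5.92, 1.90-fold), while the PCK mean of 9.25 stood above the SD mean of 6.10. The gap between the differences was -4.08 (limma adjusted p = 3.38e-10). Slc7a12 followed the same pattern, with 9.46 in SD and 11.32 in PCK and a gap of -3.78 (limma adjusted p = 8.07e-13). Azgp1, a zinc-binding plasma glycoprotein, Slpi, a leukocyte protease inhibitor, and Eci2, an isomerase of fatty acid oxidation, also fell in FHH.Pkhd1 (-0.91, -0.83 and -1.05) and had gaps of -2.12, -2.40 and -1.80. In the other direction, Scd rose in FHH.Pkhd1 and had a PCK mean of 5.77 under the SD mean of 6.66 (gap 2.42, limma adjusted p = 5.67e-06).

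Chromosome 9 and the genes beside Pkhd1 were described apart from the rest. Of 428 tested genes of chromosome 9, 8 were called (1.87%), against 130 of 10466 elsewhere (1.24%), and the median difference on chromosome 9 was 0.02. Over its whole length, the share on chromosome 9 was thus close to that of the other chromosomes, and the difference between the shares was not tested. The calls were not spread evenly. Tmem14a, Gsta1, Adgrf1, Slc29a1 and Slc22a7 lay within 42 measured genes of Pkhd1, and Khsrp, Nif3l1 and Resp18 lay 115 or more away. The share of the whole chromosome therefore does not describe the surroundings of Pkhd1, where no share was tested. Positions of the markers D9Rat35 and D9Rat70 were not used here, so genes cannot be placed inside or outside the PCK segment. Of the 8 measured genes on each side of Pkhd1, 9 were tested and 2 called, against 1.27% of all tested genes. The called genes were Tmem14a and Gsta1, both on the same side. Tmem14a, a small membrane protein of mitochondria, is the 6th measured gene from Pkhd1. It was at 9.35, 9.34 and 9.29 in FHH and at 8.33, 8.41 and 8.31 in FHH.Pkhd1 (1.97-fold lower, limma adjusted p = 1.17e-08). Its means in SD and PCK were 8.03 and 8.06, on the side of the congenic pool. Gsta1, a glutathione transferase and the 8th measured gene, was at 11.05, 10.98 and 11.04 against 11.68, 11.68 and 11.65 (1.57-fold higher, limma adjusted p = 8.52e-08). Its means in SD and PCK were 12.67 and 12.27, both above that of FHH.Pkhd1. PCK minus SD was thus -0.40 for Gsta1, opposite in sign to FHH.Pkhd1 minus FHH. Between Tmem14a and Gsta1, Gsta3 differed by -0.15 and was not called.

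Closest to Pkhd1 itself, the transcription factor Tfap2b differed by 0.03 and the replication factor Mcm3 by 0.42, neither of them called. Mmut, the methylmalonyl-CoA mutase, differed by 0.11, Cenpq by 0.10, Paqr8 by -0.13 and Tram2 by 0.09. Adgrf4, C9h6orf141, Rhag, Crisp2, Crisp3, Il17f and Gsta3l1 were under the detection level in all 4 pools and were not tested. Of these, Gsta3l1 was just under it in FHH.Pkhd1 (5.02 in FHH and 5.71 in FHH.Pkhd1), a difference of 0.70 with arrays that did not overlap. Farther out, Adgrf1 (11 measured genes away) was lower by -0.65, a call that ended when its probe sets were averaged (-0.27) and without FHH.Pkhd1 replicate 1 (-0.57). The nucleoside transporter Slc29a1 (25 genes away) was 1.61-fold higher, at 7.45 in FHH, 8.14 in FHH.Pkhd1 and 7.94 in PCK. Slc22a7 (42 genes away) was lower, as given above, while PCK was at 8.93. The splicing factor Khsrp (0.69, 115 genes away) and Nif3l1 (-0.85, 145 genes away) were not called when their probe sets were averaged (0.33 and -0.50). Resp18 (247 genes away) was at -0.59, and 3 of the 6 fits that left out an array lost the call (-0.55 to -0.57).

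**Figure D3:**
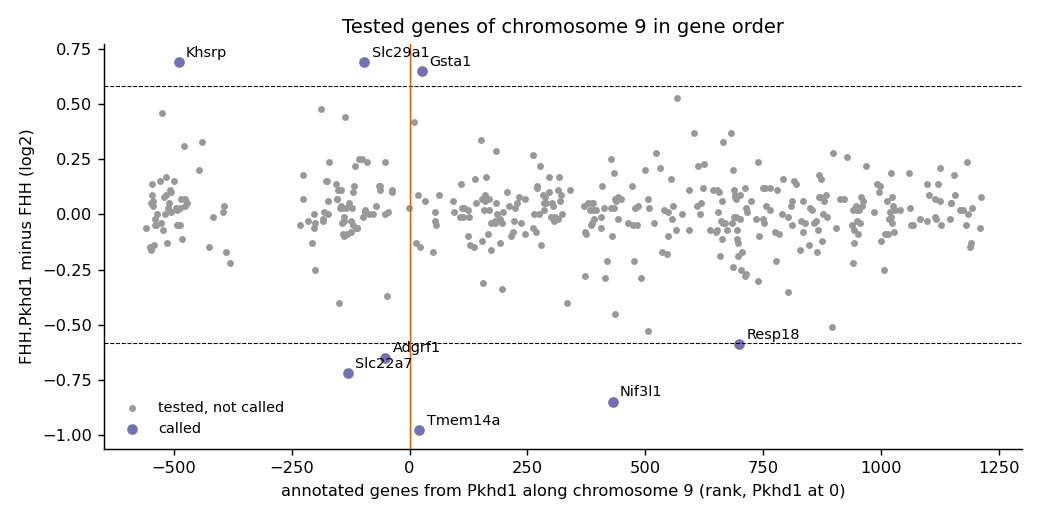
The log2 difference FHH.Pkhd1 minus FHH is plotted for the 428 tested genes of chromosome 9 against their place in the annotated gene order, with Pkhd1 at 0 (orange line). Purple points are the 8 called genes and dashed lines mark 1.5-fold. Called genes stand on both sides of Pkhd1, from Khsrp at 0.69 to Tmem14a at -0.98.

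Across the genome, 11 pairs of called genes had at most 2 tested genes between them, and 7 of the pairs shared a direction. These pairs were looked for after the calls were seen. Besides the Akr1c genes of chromosome 17 and the Ugt2b pair of chromosome 14, they included Etfrf1 and the clock repressor Bhlhe41 (-1.35 and -0.84) on chromosome 4. Opposite directions were seen for the adjacent Slc16a9 and Mrln on chromosome 20 (-0.59 and 0.68) and for Scnn1a and Vwf on chromosome 4 (0.85 and -0.89).

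The largest gains in FHH.Pkhd1 were those of Akr1b7 (1.81), Scd (1.53), S100a9 (1.24), Lsm14b (1.14), Dnajc7 (1.10) and Hsd3b1 (1.07). Akr1b7 on chromosome 4, an aldose reductase-like enzyme abundant in adrenal cortex and also found in renin-producing cells, was at 5.80, 5.70 and 5.69 in FHH and at 7.55, 7.61 and 7.47 in FHH.Pkhd1 (1.81 ± 0.05, SE, limma adjusted p = 6.63e-11). The FHH mean of 5.73 lay just under the detection level, and SD and PCK were far lower at 4.08 and 3.85. Akr1b7 was thus tested only through the pool where it is high, so its place among the gains is no separate support. The same holds for S100a9 and Lsm14b. Hsd3b1, which makes progesterone from pregnenolone, was at 8.29, 8.16 and 8.21 against 9.19, 9.38 and 9.30 (2.10-fold, limma adjusted p = 3.76e-07). Cyp11a1, the enzyme of cholesterol side-chain cleavage, was at 7.06, 7.38 and 7.24 against 8.18, 8.17 and 8.10 (1.90-fold). Star, which brings cholesterol into mitochondria, was at 6.72, 6.61 and 6.77 against 7.5, 7.62 and 7.48 (1.78-fold), and its other detected probe set gave 0.77. In SD and PCK, Star was at 5.60 and 5.50 and Hsd3b1 at 5.80 and 5.80.

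On the list of steroidogenic and adrenal cortex genes, 3 of 9 tested were called, all higher, with a median of 0.26, and 7 of the 9 passed the adjusted p alone, all in that direction. Cyp21a1, the 21-hydroxylase of adrenal cortex, differed by 0.56 and Fdx1 by 0.14. The defining markers Star, Cyp11a1 and Cyp21a1 were detected in both pools and higher in FHH.Pkhd1, Cyp21a1 short of the fold limit. Of the other defining markers, Cyp11b1 (3.57 and 3.94) was under the detection level in both pools and Cyp11b2 was not measured. Nr5a1, also on the list, was under that level too (4.72 and 4.63). The summed signal of the 12 measured genes of the list was 12.03 to 12.08 on FHH arrays, 12.32 to 12.35 in FHH.Pkhd1, 11.87 to 11.90 in SD and 11.80 to 11.84 in PCK. Of the markers of adrenal medulla, Chga and Pnmt were under the detection level in both pools, at 4.50 and 5.04 and at 4.18 and 4.79, and Th was at 5.71 and 5.83. In such bulk RNA, more cells of a type and more RNA per cell cannot be told apart. Whether adrenal tissue took part in the kidney samples was not tested.

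Of 28 tested genes of fatty acid and triglyceride synthesis, 2 were called, both higher, with a median of 0.17, and 16 were higher and 4 lower by the adjusted p alone. Scd, the stearoyl-CoA desaturase, was at 8.19, 8.14 and 8.27 in FHH and at 9.70, 9.51 and 9.98 in FHH.Pkhd1 (2.89-fold, limma adjusted p = 2.87e-05). Thrsp, an inducer of lipogenesis, was at 8.56, 8.46 and 8.46 against 9.18, 9.22 and 9.29 (1.67-fold), and its other probe sets gave 0.85 and 0.80. Below the fold limit lay Scd2 (0.49), fatty acid synthase Fasn (0.48), the desaturase Fads2 (0.43) and the elongase Elovl6 (0.40). The transcription factor Srebf1 was at 0.25, and Me1 and Fads1 went the other way (-0.14 and -0.19). Thrsp and Car3, carbonic anhydrase 3, also mark adipocytes. Car3 was 1.61-fold higher (9.76 to 10.45). Of 21 tested fat markers these 2 were higher and Ucp1 lower (-0.59, a call lost without any of 3 arrays, at -0.53 to -0.58). Among the defining markers Adipoq was at 6.44 and 6.16 and Plin1 at 6.06 and 6.47, and neither was called. The summed signal of the 27 measured fat markers was 13.33 to 13.40 in FHH and 13.51 to 13.53 in FHH.Pkhd1, and the part of fat in the lipid genes was not tested. The summed signals of skeletal muscle and liver markers were lower. Most of the muscle sum was Myh1 (11.75 in FHH, 11.12 in FHH.Pkhd1). Most of the liver sum was Rgn in FHH (11.25), but not in FHH.Pkhd1, where Rgn (9.86) lay under Alb (10.05). The 23 measured skeletal muscle markers summed to 12.11 to 12.20 in FHH and 11.60 to 11.75 in FHH.Pkhd1, and 2 of 6 tested were called lower, Casq1, the calcium store protein (-0.98), and the myosin Myh1 (-0.63, a call lost without FHH.Pkhd1 replicate 1, at -0.58). The 15 measured hepatocyte markers summed to 11.88 to 11.91 and 11.37 to 11.43, with Rgn lower and Fgb higher among 8 tested, whose median was 0.30. Of these 8, 4 were higher and 2 lower by the adjusted p alone, and the defining marker Alb was at 9.58 and 10.05. In both pools 17 of the muscle and 9 of the hepatocyte markers were under the detection level. Among them were the defining markers Ckm, Acta1, Apoa1 and Cps1. The part of such tissues in the differences was not tested. Of 42 tested genes of fatty acid oxidation, Acadsb was higher (1.03 ± 0.18, SE) from an FHH mean of 5.20 under the detection level, and Eci2 was lower (2.07-fold), with a list median of 0.04. Acadsb reached that level only in FHH.Pkhd1 (6.23), so its call is no support.

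**Figure D4:**
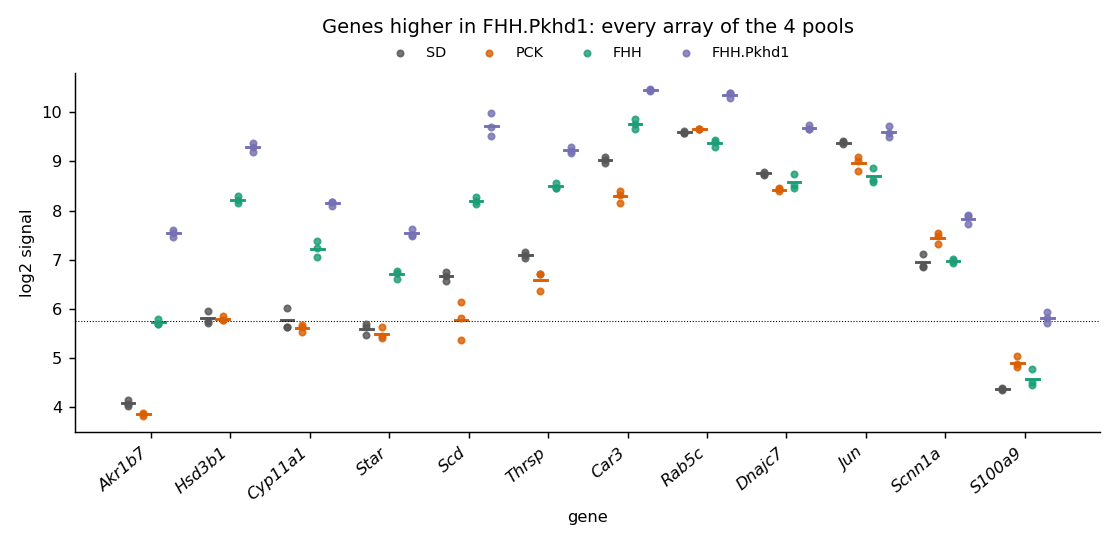
Points are the log2 signals of every array and short bars the means of 3 arrays, for 12 genes called higher in FHH.Pkhd1, in the pools SD, PCK, FHH and FHH.Pkhd1. The dotted line is the detection level of 5.74. FHH.Pkhd1 is the highest pool for each gene shown. SD and PCK means are between 5.50 and 5.80 for Hsd3b1, Cyp11a1 and Star.

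Further called increases lay outside these lists. The endosomal GTPase Rab5c was at 9.30, 9.39 and 9.43 in FHH and at 10.29, 10.39 and 10.39 in FHH.Pkhd1 (1.98-fold, limma adjusted p = 8.63e-09), and was the only called gene of 31 tested of endosome and lysosome. On chromosome 10 with it, the co-chaperone Dnajc7 and the endoplasmic reticulum receptor Retreg3 were 2.14-fold and 1.99-fold higher, but neither was called on averaged probe sets (0.38 and 0.47). Jun, a subunit of AP-1, was 1.87-fold higher (8.69 to 9.60), with other probe sets at 0.03 and 0.94, and was the only called gene of 23 immediate early genes tested. Erbb2, the receptor partner of the EGF family, was at 7.92, 7.90 and 7.91 against 8.59, 8.42 and 8.57 (1.53-fold). Egfr (-0.01) and Egf (0.02) on the same list of 16 tested genes did not pass the test. The chromosome 20 genes Prrc2a and Pbx2 were 1.89-fold and 1.83-fold higher, the angiogenin gene Ang 1.67-fold, Anp32a 1.66-fold and Gstm2, a glutathione transferase, 1.62-fold.

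Genes of tubule injury and repair went in both directions. Of 31 tested, 4 were lower and 1 higher, with a median of 0.01. The lower genes were Tff3 and Havcr1, given above, Slpi (7.24 to 6.41, 1.77-fold) and the stress cytokine Gdf15 (-0.61, a call lost without FHH replicate 1). Fgb, the fibrinogen beta chain, was 1.61-fold higher (7.03 to 7.72), and was not tested on averaged probe sets, which lay under the detection level. Lcn2, neutrophil gelatinase-associated lipocalin, was at -0.55, Spp1, osteopontin, at 0.24 and Krt19 at 0.48, none of them called. Of 33 tested coagulation and plasma protein genes, 4 were lower and 1 higher, the lower ones being Pzp, Azgp1, the von Willebrand factor Vwf (7.49 to 6.59, 1.86-fold) and protein C, Proc (7.23 to 6.55, 1.61-fold). Vwf was the only called gene of 21 endothelial markers tested, whose median was 0.04.

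Immune cell lists held calls in both directions. S100a9, a calcium-binding protein of neutrophils, was at 4.77, 4.52 and 4.44 in FHH and at 5.93, 5.81 and 5.71 in FHH.Pkhd1 (1.24 ± 0.08, SE, limma adjusted p = 8.08e-07). The Fc receptor Fcgr3a was called as well (0.71), at 5.50 in FHH, under the detection level, 6.21 in FHH.Pkhd1 and 6.84 in SD. S100a9 reached that level only in FHH.Pkhd1 (5.82, against 4.58 in FHH, 4.37 in SD and 4.91 in PCK). It was thus tested only through the pool where it is high, so the count of 2 called among 4 tested neutrophil markers is no support. Of the 12 measured ones, 8 were under the detection level in both pools. S100a8, the partner of S100a9, was among those, at 3.54 and 4.11, and Mmp9 was at -0.53 and not called. The summed signal of the neutrophil list was 11.79 to 11.83 in FHH and 11.84 to 11.95 in FHH.Pkhd1. Of 7 tested lymphocyte markers 1 was called, Jchain, the joining chain of antibodies (-0.68), at 5.67 in FHH and 4.99 in FHH.Pkhd1, both under the detection level. By the adjusted p alone 3 of the 7 were lower and 1 higher, and the summed signal of the 24 measured markers overlapped (10.17 to 10.18 and 10.11 to 10.19). None of 16 macrophage and dendritic cell markers tested was called, with Itgax at -0.41 and C1qb at 0.30. Of 28 interferon response genes, 1 was called, Igtp (-0.65, or -0.36 and not called on averaged probe sets), with a median of -0.12, and 12 were lower and 2 higher by the adjusted p alone.

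Nephron segments were described by their marker lists. Proximal tubule markers had a median of -0.01 with 2 of 39 called, Slc22a7 and the carnitine transporter Slc16a9 (-0.59), both lower, and the second of these lost its call without FHH replicate 1 or FHH.Pkhd1 replicate 2 (-0.57 in each). None of 19 markers of the loop of Henle and distal convoluted tubule was called. Principal cell markers had a median of 0.23. By the adjusted p alone 12 of 18 were higher and 2 lower, against 12.5% and 9.7% of all tested genes. Among the higher ones were Aqp2 (0.29), the vasopressin receptor Avpr2 (0.34) and Sgk1 (0.35), and the lowest difference on the list was -0.42. The sodium channel subunit Scnn1a was called (7.02, 6.94 and 6.98 against 7.88, 7.72 and 7.91, 1.81-fold), though not on averaged probe sets (0.46). The intercalated cell list had a median of 0.19 and 1 of 11 called, the anion exchanger Slc4a1 (9.27 to 9.92, 1.57-fold), whose other probe set gave 0.91. Slc4a1 also marks red blood cells, whose 17 measured markers had a summed signal of 13.55 to 13.56 in FHH and 13.69 to 13.74 in FHH.Pkhd1, and the part of red cells in this call was not tested. The summed signal was 14.32 to 14.33 in FHH and 14.57 to 14.59 in FHH.Pkhd1 for principal cells, and 13.72 to 13.75 and 13.85 to 13.90 for intercalated cells. Whether the share of collecting duct cells differed was not tested.

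Lists of cystic disease and cilium, cell cycle, matrix, Wnt and polarity, and vasopressin and cAMP signalling together held 1 call, in the matrix list. The EGF receptor list, with its call of Erbb2, is given above. Of 45 tested genes of cystic disease and the primary cilium none was called by limma. Their median was -0.02, and by the adjusted p alone 5 were higher and 3 lower, smaller shares than the 12.5% and 9.7% of all tested genes. The largest difference among them was that of Dzip1l (-0.51), a ciliary transition zone gene that also causes recessive polycystic kidney disease. None of 47 cell cycle genes was called by limma at 1.5-fold, but their median was 0.19, and 27 were higher and 2 lower by the adjusted p alone. Mcm6 and Gins1, replication factors, were the highest at 0.58 and 0.54. Mcm6 passed the fold limit without FHH replicate 1 (0.62), FHH.Pkhd1 replicate 2 (0.60) or replicate 3 (0.59). Of 48 matrix and fibroblast genes, 22 were higher and 1 lower by the adjusted p alone, with a median of 0.13. The called gene was Eln, elastin, at 0.61, a call that ended on averaged probe sets (0.36), after quantile normalization (0.58), without FHH replicate 1 (0.58) and without FHH.Pkhd1 replicate 3 (0.44). None of 36 Wnt and polarity genes was called, with Wnt4 at 0.56 and Lrp5 at 0.52, and none of 37 genes of vasopressin and cAMP signalling, with a median of 0.05.

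**Figure D5:**
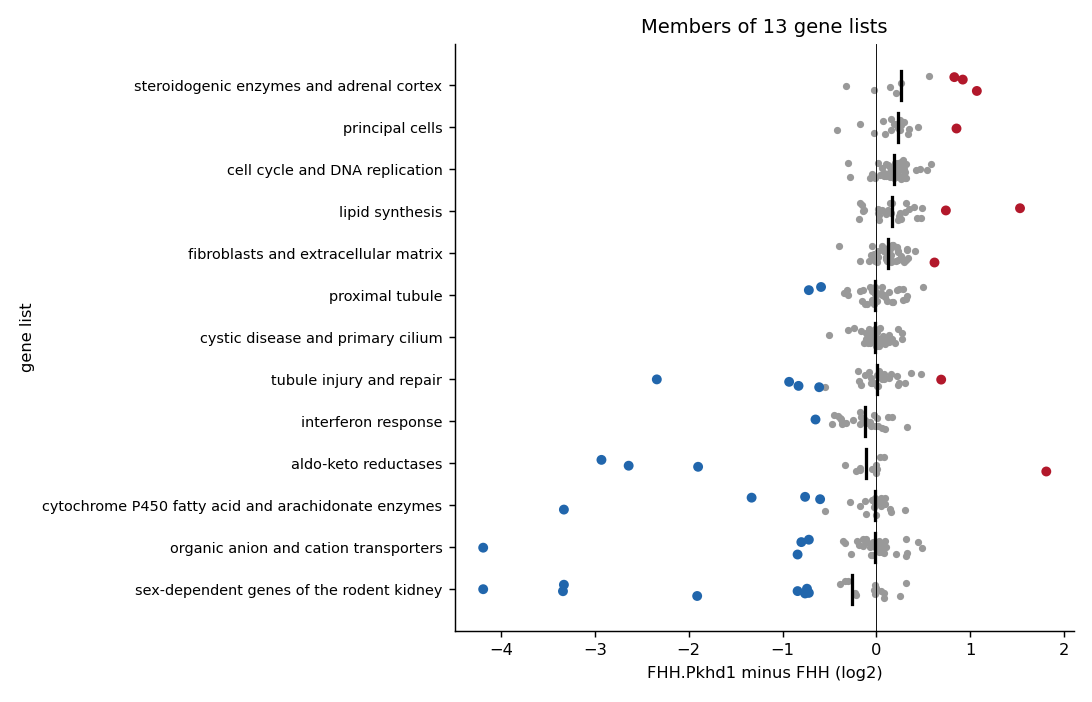
Each point is a tested member of a gene list and gives its log2 difference FHH.Pkhd1 minus FHH, with called lower genes in blue, called higher genes in red and the list median as a black bar. The sex-dependent list holds 8 called lower genes and a median of -0.27. The cell cycle list has a median of 0.19 with no call.

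Some called genes had further probe sets against which the kept one could be set. Of the higher genes, 11 had 14 other detected probe sets, of which 13 had the same sign and 7 also reached 1.5-fold (median 0.52). Of the lower genes, 16 had 24 others, of which 21 had the same sign and 8 reached 1.5-fold (median -0.29). The other probe set differed by less than 0.1 for Rora, a nuclear receptor of the clock (0.70 kept, -0.01 other), Khsrp (0.69 and 0.01), Qng1 (-0.82 and 0.01), Aar2 (-0.74 and -0.09) and Spns2 (-0.60 and -0.09). So did both others of LOC100911253 (-0.79 kept, -0.03 and 0.04 other), and 1 of the others of Jun (0.03) and of Ube3a (0.08). For Znf865 the other probe set had the opposite sign (-0.64 kept, 0.49 other). For Cyp4a8, Trpv1, Pcdh9, Thrsp, Star and Car3, the other probe sets, given above and at 0.88 for Car3, had the same sign and passed 1.5-fold.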

How the data were processed

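Deposited values were log2 probe set signals, made by the authors; the submitters' processing notes name RMA and Partek 6.2. The sources used here do not say if RMA took all 12 arrays at once. They were used as deposited. Of 31099 probe sets, 57 were controls, 20826 had 1 symbol, 436 several and 9780 none. Symbols were matched to GRCr8 gene records (20822 probe sets, 14213 genes), used for names and gene order. Each gene kept its probe set of highest 12-array mean, and genes whose highest pool mean reached 5.74 (40th percentile) were tested.

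Limma 3.58.1 in R 4.3.3 fitted 1 mean per strain to the 12 arrays with eBayes (prior degrees of freedom 4.01, residual 8). Benjamini-Hochberg adjustment ran over 10894 genes. On simulated data of that size, it called 0% of genes changed 1.25-fold, 100% of those changed 2-fold or 4-fold, and 0 unchanged genes. The simulated noise had only the spread between arrays of a pool, so the fold limit largely fixed these results. They give no error rate for differences between animals or pools.

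Members and the 53 gene lists were chosen with earlier results of these data known. Named genes were the 20 largest called differences each way, up to 4 called members per list (the 2 largest where none was called), called genes of chromosome 9, the 8 measured genes on each side of Pkhd1, and 10 called genes opposite to PCK minus SD. Others named here, such as Kap, Gdf15, Proc, Mrln, Clec3b, LOC100911253, LOC100911506, Qng1, Aar2, Spns2, Ube3a, Znf865 and uncalled list members, were added after their values were seen. Arrays of the same replicate number did not deviate together in all pairs (r = 0.17, 0.14 and -0.20), so arrays were not paired. Alternatives covered filters, probe set choice, fold limit, variance model, arrays in the fit, normalization, a replicate block and leaving out each array.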

Additional observations from a re-analysis of the deposited data

Results flagged for a closer look

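Of the called genes that move in opposite directions in FHH.Pkhd1 minus FHH and in PCK minus SD, the 10 with the largest gap between these 2 differences stood out by the limma contrast of the gap itself (log2). The gap was positive for Scd (2.42), Cyp26b1, a retinoic acid hydroxylase (2.09), Acadsb (2.05) and Akr1b7 (2.04). It was negative for Havcr1 (-4.08), Slc7a12 (-3.78), Slpi (-2.40), AKR1C3l1 (-2.28), Azgp1 (-2.12) and Eci2 (-1.80). The Cyp26b1 call in FHH.Pkhd1 minus FHH (0.69) ended on averaged probe sets (0.48), and the SD and PCK means of Akr1b7 and of Acadsb all lay under the detection level.

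Probe sets with no gene symbol were outside the report's comparisons. Of 4354 such probe sets that reached the detection level, 100 were called by the same limma rule (2.3%), 46 higher and 54 lower in FHH.Pkhd1, with differences from -3.22 to 2.34. Their genes are not named here.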

How the results depend on the processing

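The call total of 138 and its split into 43 higher and 95 lower genes stayed within 1.5 times under other filters, another choice of probe set, another variance model, the 6 arrays alone and other normalizations, with totals of 112 to 148, and no named gene changed sign with a call on either side. The mean of the probe sets of a gene shared 106 of its 112 calls with the reported ones, and quantile normalization shared 131 of 137. Leaving out each array in turn gave totals of 133 to 148, with 45 to 51 higher and 88 to 98 lower. The fold limit moved the counts: the adjusted p alone gave 2423 genes (1366 higher and 1057 lower), and a 2-fold limit gave 31 (7 higher and 24 lower), each by the construction of the rule. The replicate block gave 138 calls, the same 138 genes, and 3193 in place of 3345 genes with a gap between the differences; the arrays share only a number. Of 77 called named genes, 10 lost the call on averaged probe sets, and each array left out cost 1 to 4 calls. A filter on the mean over 12 arrays leaves genes that are low in other pools, such as Akr1b7, S100a9 and Lsm14b, untested. Signals near the detection level of 5.74 limit what can be said of genes low in a pool. Technical replicates of 1 pool carry no animal-to-animal spread.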
